A study of Mus musculus with 2 samples.

Results

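The genes described here are 9 transcripts commonly used to mark bile duct cells, liver progenitor-like cells and liver tumor cells: Spp1, Cd44, Sox9, Krt7, Krt19, Krt8, Krt18, Epcam and Cd24a. They were taken by gene symbol from the 32285 genes counted in each library. The study these libraries belong to asked which liver cells change when hepatocytes lose NgBR, and it named a cancer cell cluster from transcripts that included Krt8, Krt18, Spp1 and Epcam. The comparison below asks in which cell classes these markers were counted, alone or together, and how their levels differed between the libraries.

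Each group had 1 library, made from dissociated liver of male C57BL6 mice given a Western diet for 16 weeks (the sample titles call the diet HFD, and both libraries carry both names). The WT library came from control mice, labelled CTRL, and its tissue is given as liver. The N-LKO library came from liver plus tumor of mice in which albumin-Cre recombines a loxP-flanked allele of Nus1, the gene for NgBR, so that the deletion is aimed at hepatocytes and other cells that have used the albumin promoter. Hepatocytes and nonparenchymal cells were mixed before loading, and a smaller portion of tumor cells was added for N-LKO. Age at collection and the number of animals behind each library are not given in the labels. The effects of genotype, of tumor tissue and of the library itself cannot be told apart, and no difference below has a replicate check.

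Bile ducts are lined by cholangiocytes, an epithelium held together by adhesion proteins such as Epcam and built on keratin filaments. Keratins polymerize as pairs of an acidic and a basic partner: hepatocytes normally make Krt8 with Krt18, whereas cholangiocytes add Krt7 and Krt19. Sox9 is a transcription factor of the ductal lineage, and hepatocytes of injured or regenerating liver can switch on Sox9 and Spp1 without becoming duct cells. Spp1 encodes osteopontin, a secreted matrix protein that binds Cd44 and several integrins.

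The filters kept 18431 cells of WT and 19855 of N-LKO, at median depths of 1400 and 1455 unique molecular identifiers (UMIs, each standing for 1 captured transcript). Classes were named from markers that include none of the 9 genes and are written as "X-like". They held 9948 hepatocyte-like cells of WT and 4512 of N-LKO, and 200 WT and 498 N-LKO cholangiocyte-like cells. The 10 cholangiocyte markers used for naming summed to 4844 CPM (UMIs scaled to a class total of 1000000) in WT, compared with 4405 CPM in N-LKO cholangiocyte-like cells, and to 147 and 259 CPM in hepatocyte-like cells. The libraries shared 2499 barcodes, of which 121 were kept as cells in both. Nus1 itself stood at 73.0 CPM in the hepatocyte-like cells of WT, compared with 36.5 CPM in those of N-LKO, 0.501 times the WT level, with an interval of −1.18 to −0.82 on the log2 scale. The assay reads the 3′ end of the transcript, away from the deleted first exon, so this does not check the deletion itself. All intervals are 95% and cover counting error only, not variation between cells, animals or libraries.

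RNA free in the suspension also enters droplets. Barcodes under 500 UMIs served as its profile, and the level it alone would give a class was estimated from markers of unrelated cell types. The deposited barcodes started at 326 UMIs in WT and 377 UMIs in N-LKO, so emptier droplets were not in the profile. Whether its barcodes were empty droplets or damaged cells was not tested, and every free RNA level here is an estimate that depends on them. In that profile Spp1 was at 18.0 CPM in WT, compared with 158 CPM in N-LKO, and Cd44 was at 46.5 and 94.6 CPM. Krt8 (287 and 301 CPM) and Krt18 (111 and 165 CPM) were abundant in it in both libraries. Sox9 stood at 24.9 and 17.9 CPM, whereas Krt7, Krt19, Epcam and Cd24a lay between 0 and 5.41 CPM. Levels of the abundant genes are therefore given below beside the level that free RNA would give.

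The promoter sequences of 4 of the genes are shown first because 3 of them, Spp1, Krt8 and Krt18, were higher together in 1 hepatocyte-like cluster of N-LKO, and Epcam stayed near 0 in the same cells. Each is the 250 bases before a RefSeq transcript start in GRCm38.p6, printed 5′ to 3′ on the strand of the gene, and capitals mark matches to the motifs searched. The stretches are chr5:104434861-104435110 (forward strand) for Spp1, chr15:102004343-102004592 (reverse strand) for Krt8, chr15:102027966-102028215 (forward strand) for Krt18 and chr17:87635729-87635978 (forward strand) for Epcam.
Spp1: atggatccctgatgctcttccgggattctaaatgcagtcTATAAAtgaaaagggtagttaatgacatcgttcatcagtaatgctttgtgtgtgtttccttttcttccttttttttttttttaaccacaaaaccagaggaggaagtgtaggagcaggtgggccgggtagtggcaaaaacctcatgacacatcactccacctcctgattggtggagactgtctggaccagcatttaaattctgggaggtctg
Krt8: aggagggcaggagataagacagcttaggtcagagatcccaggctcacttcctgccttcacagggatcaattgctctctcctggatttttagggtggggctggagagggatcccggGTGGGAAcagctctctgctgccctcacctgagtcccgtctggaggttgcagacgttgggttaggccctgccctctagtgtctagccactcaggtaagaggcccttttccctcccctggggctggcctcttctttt
Krt18: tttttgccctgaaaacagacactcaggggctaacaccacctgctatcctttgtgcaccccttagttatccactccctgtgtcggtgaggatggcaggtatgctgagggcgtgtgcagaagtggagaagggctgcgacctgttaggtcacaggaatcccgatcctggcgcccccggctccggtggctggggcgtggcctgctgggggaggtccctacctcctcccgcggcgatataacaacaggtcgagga
Epcam: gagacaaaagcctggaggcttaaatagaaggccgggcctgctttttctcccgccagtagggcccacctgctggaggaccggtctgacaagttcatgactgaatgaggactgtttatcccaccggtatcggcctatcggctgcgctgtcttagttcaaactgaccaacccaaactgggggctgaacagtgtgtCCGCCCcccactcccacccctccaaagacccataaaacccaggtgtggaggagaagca
The motifs were TATAAA (core promoter box), TGANTCA (AP-1), GGAATG (TEAD), GTGGGAA (RBPJ) and GGGCGG (SP/KLF), read on both strands, and no matches overlapped. The Spp1 stretch held 1 TATAAA, which 12.4% of 32851 promoters of the same length held. It lay near the end of the stretch that is far from the transcript start. Spp1 also had another listed start, 1081 bases away, whose promoter is not shown. The Krt8 stretch held 1 GTGGGAA (5.42% of promoters), the Epcam stretch held 1 GGGCGG on its reverse strand (32.7%), and the Krt18 stretch held none of the 5. Of the other members, Krt7 had 4 GGGCGG matches and Cd44 had no match, and the table used had no entry for Sox9, Krt19 and Cd24a. No member with an entry held TGANTCA (6.75% of promoters) or GGAATG (12.6%). A match is a run of letters, not a measured binding site.

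Across the classes, 5 of the genes had their highest level in cholangiocyte-like cells in both libraries, with an interval that did not overlap that of the next class of at least 50 cells. These were Spp1, Sox9, Krt8, Krt18 and Epcam. Spp1 (chr5:104435118-104441050, forward strand, coordinates of the whole gene in GRCm38 here and below) was at 6127 CPM in WT, compared with 5570 CPM in N-LKO cholangiocyte-like cells. The next class was Kupffer-like in WT, at 53.1 CPM, and hepatocyte-like in N-LKO, at 276 CPM. Spp1 was thus counted in nearly every cholangiocyte-like cell: after each cell was thinned to 1000 UMIs, 97.0% (93.6 to 98.9) of them held a Spp1 UMI in WT and 94.2% (91.7 to 96.1) in N-LKO. In endothelial-like cells, which had no Spp1 above the free RNA level, the share was 0.807% in WT and 6.69% in N-LKO. Median depths before thinning were 1381 and 1600.5 UMIs in cholangiocyte-like cells and 1171.5 and 1204 UMIs in endothelial-like cells, and the unthinned Spp1 shares were 98.0% and 97.6% against 0.915% and 8.69%.

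Epcam (chr17:87635979-87651129, forward strand), the adhesion molecule, was at 417 CPM in WT, compared with 409 CPM in N-LKO cholangiocyte-like cells, 1032 and 1125 times the level free RNA would give. The next class in both libraries was plasma-like, the antibody-secreting cells, with 10 UMIs (60.3 CPM) in 99 WT cells and 24 UMIs (52.0 CPM) in 266 N-LKO cells. The interval of the WT plasma-like level ran from 28.9 to 111 CPM and that of N-LKO from 33.3 to 77.3 CPM, both above the free RNA level.

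Krt7 (chr15:101411043-101430313, forward strand) and Krt19 (chr11:100140810-100148665, reverse strand), the ductal keratins, were shared between cholangiocyte-like and mesothelial-like cells, the latter being the lining of the liver surface. Krt19 was at 70.6 CPM (44.2 to 107) in WT and 109 CPM (88.4 to 132) in N-LKO cholangiocyte-like cells. In mesothelial-like cells it was at 210 CPM (105 to 376) in the 35 WT cells and 153 CPM (91.9 to 238) in the 79 N-LKO cells, and the intervals of the classes overlapped in both libraries. Krt7 was at 51.3 and 67.4 CPM in cholangiocyte-like cells, and it had 4 UMIs (76.5 CPM) in WT, compared with 6 UMIs (48.2 CPM) in N-LKO mesothelial-like cells. Neither keratin had more than 6 UMIs in any other class of either library. Krt7 overlaps Gm671 on the opposite strand, a gene counted in its own right.

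Cd24a (chr10:43578284-43584265, forward strand), a surface glycoprotein of immature epithelial and blood cells, and Cd44 (chr2:102811141-102901665, reverse strand), the receptor for hyaluronan and osteopontin, were not limited to epithelium. Cd24a was highest in cholangiocyte-like cells, at 173 CPM in WT, compared with 268 CPM in N-LKO. Conventional dendritic-like cells followed at 137 and 152 CPM, and in WT the intervals of these neighbors overlapped. Plasma-like cells held 84.4 and 104 CPM of Cd24a, and B-like cells 44.6 and 39.6 CPM. Cd44 was highest in Kupffer-like cells, the resident macrophages of the liver, at 600 CPM in WT, compared with 537 CPM in N-LKO. Neutrophil-like cells followed at 402 and 510 CPM, and hepatocyte-like cells were among the lowest, at 28.9 and 53.6 CPM. Counted per cell, 42.3% of the Kupffer-like cells of WT and 38.3% of those of N-LKO held a Cd44 UMI after thinning, against 6.50% and 18.5% of cholangiocyte-like cells and 1.99% and 6.17% of endothelial-like cells.

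**Figure D1:**
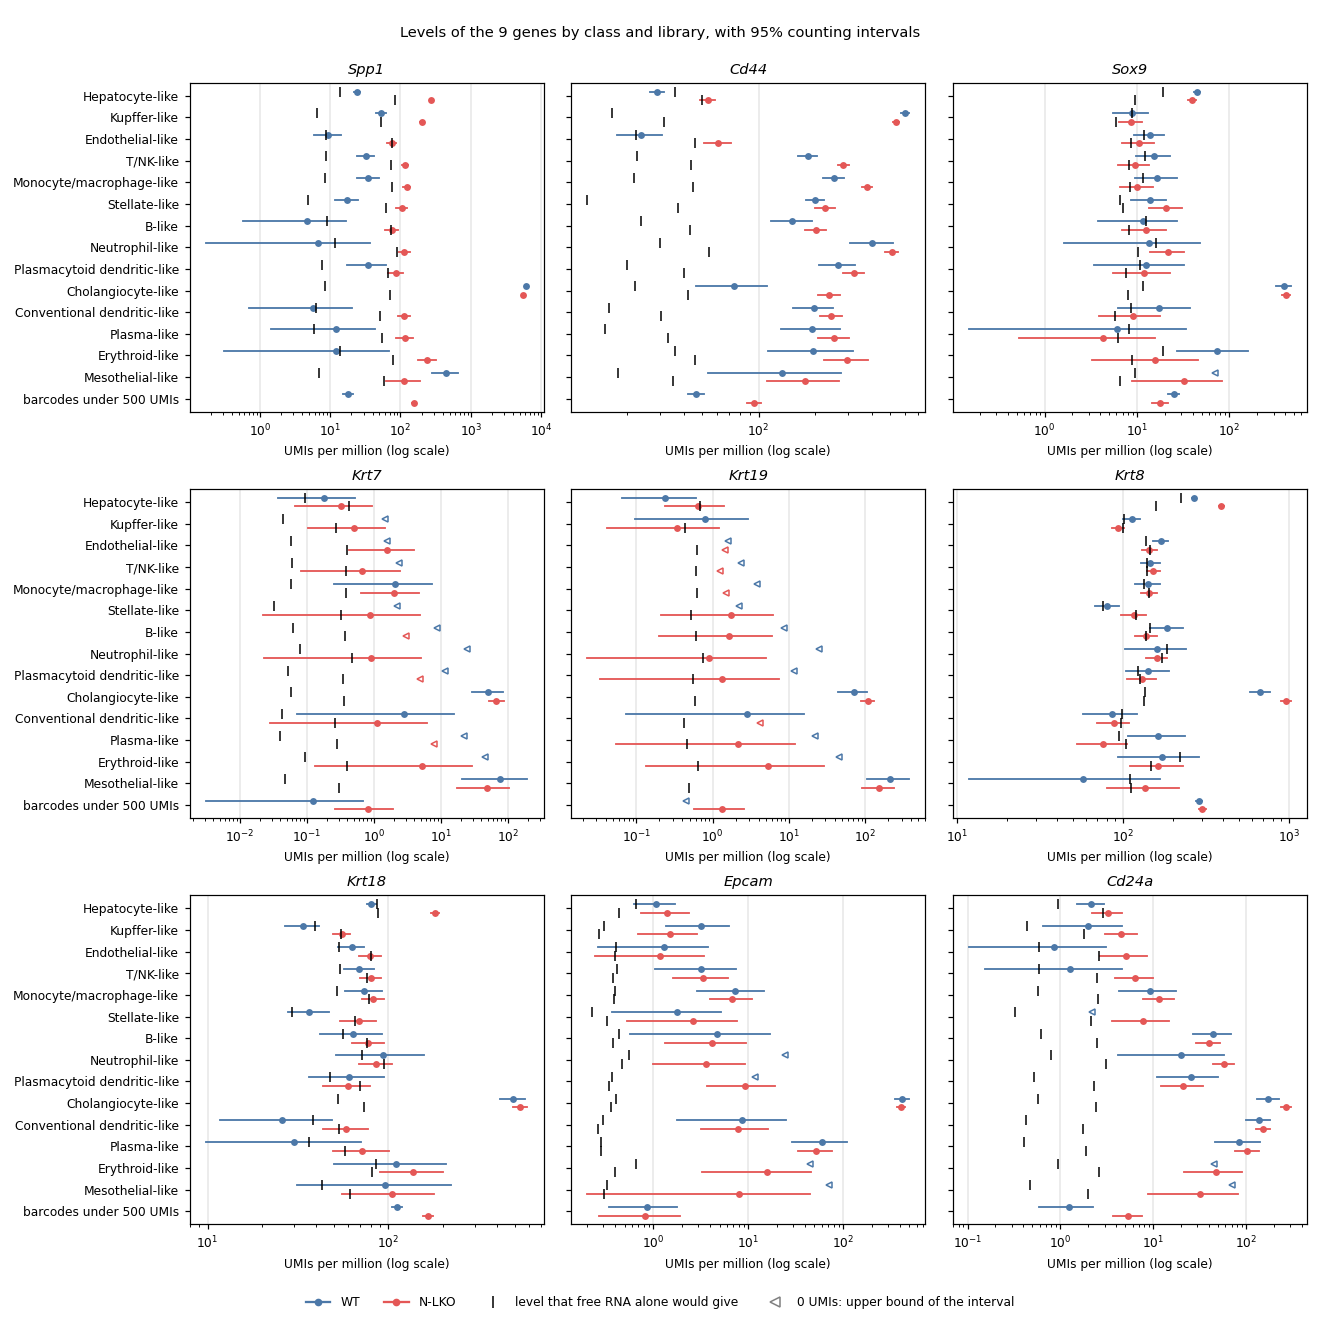
Level of each of the 9 genes in every cell class, in CPM on a log axis, with WT and N-LKO shown separately. Spp1, Sox9, Krt8, Krt18 and Epcam peak in cholangiocyte-like cells in both libraries, while Cd44 peaks in Kupffer-like cells at 600 and 537 CPM.

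In hepatocyte-like cells, osteopontin and the Krt8 and Krt18 pair were higher in N-LKO. Krt7, Krt19, Epcam and Cd24a stayed under 5 CPM in both libraries. Spp1 had 401 UMIs (23.9 CPM, 21.6 to 26.3) in WT and 2561 UMIs (276 CPM) in N-LKO, for a log2 ratio of 3.53 (3.38 to 3.69). Free RNA alone would have given 14.0 CPM in WT, compared with 83.4 CPM in N-LKO, and with it subtracted the log2 ratio was 3.20. Spp1 also stood above the free RNA level in N-LKO Kupffer-like cells, at 203 CPM against 52.5 CPM, and in the WT ones, at 53.1 CPM against 6.39 CPM. In endothelial-like cells it did not, at 75.5 CPM against 76.4 CPM in N-LKO. Other N-LKO classes above it included conventional dendritic-like (2.21 times) and T/NK-like cells (1.58 times). Without subtraction the Spp1 ratio was above 0 in every class except cholangiocyte-like and mesothelial-like cells. It was 3.99 in conventional dendritic-like cells (2 WT UMIs), 2.97 in endothelial-like and 1.93 in Kupffer-like cells. With free RNA subtracted, too few UMIs remained for a value in the first 2 of these classes. The subtracted ratio was 2.02 in stellate-like, 1.64 in Kupffer-like, 0.85 in monocyte/macrophage-like and 0.81 in T/NK-like cells. In plasmacytoid dendritic-like cells it was −0.53. A higher Spp1 level in N-LKO was thus not limited to hepatocyte-like cells, but was not found in every class after subtraction. A summed level does not tell fewer cells with a gene from less of its RNA per cell, which the counts of cells below address.

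Krt8 (chr15:101996698-102004482, reverse strand) and Krt18 (chr15:102028180-102032027, forward strand), whose products form 1 filament, lie 23697 bases apart on opposite strands, and Krt8 overlaps the counted gene Gm36026 on the other strand. Krt8 was at 268 CPM (4498 UMIs) in WT, compared with 392 CPM (3642 UMIs) in N-LKO hepatocyte-like cells, a log2 ratio of 0.55 (0.49 to 0.61). Krt18 was at 80.5 CPM (1353 UMIs) and 181 CPM (1683 UMIs), a log2 ratio of 1.17 (1.07 to 1.28). The WT level of Krt18 was not above the 86.3 CPM that free RNA would give, whereas the N-LKO level was above its 87.3 CPM. These keratin ratios turned to −0.38 for both genes when cells were limited to 10% mitochondrial UMIs, a limit that kept 758 WT and 1056 N-LKO hepatocyte-like cells. Mitochondrial UMIs made up 20.8% of all UMIs in the main WT hepatocyte-like cluster.

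Sox9 (chr11:112782224-112787760, forward strand) did not separate between the libraries in hepatocyte-like cells. It had 747 UMIs (44.4 CPM) in WT, compared with 368 UMIs (39.6 CPM) in N-LKO, for a log2 ratio of −0.16 (−0.35 to 0.02). Both levels were above the free RNA level of 19.3 and 9.43 CPM. With free RNA subtracted the ratio was −0.82. Cd44 was at 28.9 CPM in WT, compared with 53.6 CPM in N-LKO, for a log2 ratio of 0.89 (0.71 to 1.08). Neither Cd44 level was above what free RNA would give, 36.2 and 49.9 CPM.

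The remaining members were low in hepatocyte-like cells. Krt7 had 3 UMIs in each library, and Krt19 had 4 in WT and 6 in N-LKO. Epcam had 18 and 13 UMIs (1.07 and 1.40 CPM), and only the N-LKO level was above that of free RNA, at 3.24 times it. Cd24a had 36 and 30 UMIs (2.14 and 3.23 CPM), and only the WT level was above that of free RNA, at 2.25 times it. Of the 9 genes, 5 reached 5 CPM in at least 1 library, and 2 of these, Spp1 and Krt18, were 2-fold or more higher in N-LKO. Among all 10729 genes at that level, 24.2% were 2-fold or more higher, and the members' median log2 ratio was 0.89 against 0.44 over those genes. None of the 5 was 2-fold or more lower, against 2.47% of all genes.

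**Figure D2:**
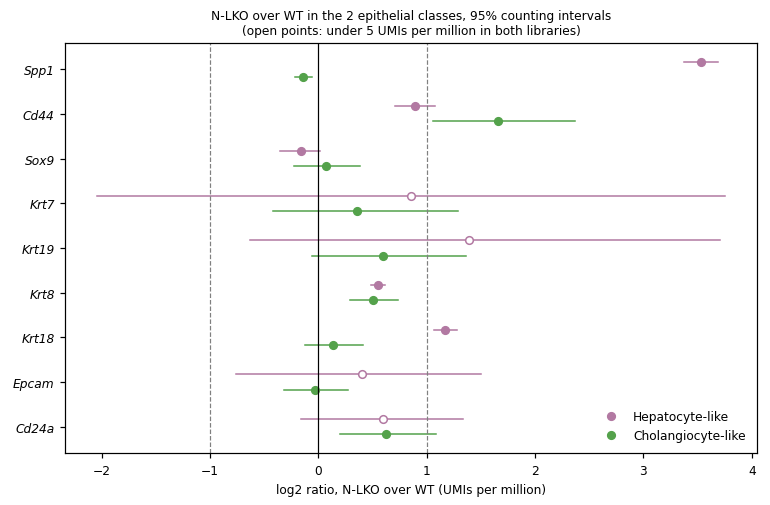
Log2 ratio of N-LKO over WT for each gene in hepatocyte-like and cholangiocyte-like cells, with 95% counting intervals as bars. Spp1 lies at 3.53 in hepatocyte-like and at −0.14 in cholangiocyte-like cells, and Cd44 lies above 0 in both.

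The hepatocyte-like cells fell into 6 clusters, and most were nearly private to 1 library. The main WT cluster held 8139 WT and 90 N-LKO cells. A cluster called Malat1-rich here held 22 WT and 2417 N-LKO cells, in which Malat1, a nuclear noncoding RNA, took 1.98% of the N-LKO UMIs. A high Malat1 share was not limited to it, since a smaller cluster of 320 WT and 6 N-LKO cells had 3.56% in its WT cells. An acute phase cluster, the one in which acute phase transcripts such as Saa1, Lcn2 and Orm1 were highest in N-LKO, held 117 WT and 1974 N-LKO cells. The 3 smaller clusters were almost wholly WT, and 1 of them was pericentral. The 11 hepatocyte markers summed to 14757 CPM in the Malat1-rich cluster, below the 15748 CPM that free RNA would give it, so its hepatocyte identity is not shown by those markers. In the N-LKO acute phase cluster they summed to 46342 CPM against 9442 CPM from free RNA. With the Malat1-rich cluster and the other clusters of outlying Malat1 share left out, 3 members were 2-fold or more higher in N-LKO hepatocyte-like cells: Spp1, Krt18 and Krt8.

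Spp1, Krt8 and Krt18 were high in the acute phase cluster. Spp1 was at 462 CPM (442 to 483) in its N-LKO cells, against a free RNA level of 62.2 CPM, and at 177 CPM (127 to 241) in its 117 WT cells, against 6.59 CPM. In the main WT cluster it was at 24.2 CPM, and in the Malat1-rich N-LKO cluster it was at 96.5 CPM, not above the free RNA level of 104 CPM. The 90 N-LKO cells that joined the main WT cluster held 493 CPM (392 to 612) of Spp1, so a high level was not limited to the acute phase cluster. Of the 82 UMIs behind that value, 79.3% came from 4 cells. In the main WT cluster Krt8 was at 253 CPM, against a free RNA level of 231 CPM, and Krt18 was at 67.5 CPM, not above its 89.5 CPM.

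Within the N-LKO library, the acute phase cluster was set against all other hepatocyte-like cells, which were mostly Malat1-rich. Spp1 was at 462 against 109 CPM (log2 ratio 2.08, 1.94 to 2.22), Krt8 at 628 against 182 CPM (1.79, 1.68 to 1.90) and Krt18 at 272 against 100 CPM (1.43, 1.28 to 1.59). These 3 were 2-fold or more higher, of the 5 members at 5 CPM or more, where 13.7% of 11249 genes were. Sox9 was at 50.9 against 29.6 CPM (0.78), and Cd44 was at 39.5 against 66.2 CPM (−0.74). No member was 2-fold or more lower, against 41.2% of genes, and the median was 1.43 for the members and −0.71 for all genes. At a finer clustering that left the Malat1-rich cells unnamed, only Spp1 remained past 2-fold.

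The same cluster compared between libraries gave a different order. There, Krt8 was at 667 CPM in the 117 WT cells and 628 CPM in the 1974 N-LKO cells, a log2 ratio of −0.09 (−0.32 to 0.16). Spp1 had a ratio of 1.36 (0.94 to 1.86) and Krt18 of 0.60 (0.17 to 1.10), from 177 to 272 CPM. Sox9 was lower in N-LKO, at 50.9 CPM (44.5 to 58.1) against 99.5 CPM (63.1 to 149) in WT, a log2 ratio of −0.99 (−1.59 to −0.28). High Krt8 was thus present in the few WT cells of this cluster as well, and Sox9 was higher in them. Krt7, Krt19 and Epcam had 0 UMIs in the WT cells, which allows up to 12.98 CPM, and 2, 2 and 5 UMIs in the N-LKO cells. Cholangiocyte markers summed to 143 CPM in the N-LKO cells of this cluster and to 373 CPM in the Malat1-rich cluster. In the smaller cluster of 320 WT cells with a high Malat1 share they summed to 244 CPM.

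**Figure D3:**
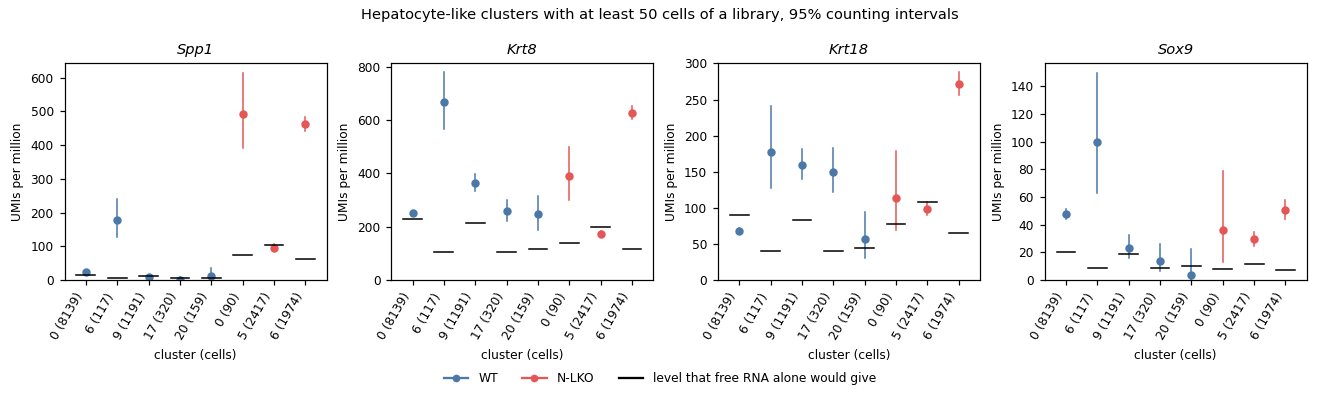
Level of Spp1, Krt8, Krt18 and Sox9 in the hepatocyte-like clusters with at least 50 cells of a library, in CPM with 95% Poisson intervals. Spp1, Krt8 and Krt18 are high in the acute phase cluster (462, 628 and 272 CPM in N-LKO), and Krt8 is as high in the WT cells of that cluster (667 CPM).

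Osteopontin in the acute phase cluster came from a minority of cells. Of the 1974 N-LKO cells, 1484 held no Spp1 UMI, 235 held 1, 143 held 2 to 4 and 112 held 5 or more. These 112 cells (5.67%) held 70.2% of the Spp1 UMIs of the cluster, so the counting intervals above understate the spread between cells. Among cholangiocyte-like cells, 362 of 498 in N-LKO (72.7%) and 158 of 200 in WT (79.0%) had 5 or more. Of WT cells in the acute phase cluster, 2 of 117 did.

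The cells rich in Spp1 also more often held Krt8, Krt18 and Sox9, and were deeper. From no Spp1 UMI to 5 or more, the median depth was 1834.5, 2201, 2543 and 2874 UMIs. On the CPM scale, which divides by depth, Krt8 was at 548, 687, 768 and 1116 CPM over the same bins, Krt18 at 246, 284, 298 and 465 CPM, and Sox9 at 34.2, 66.6, 93.0 and 133 CPM. Epcam was found in 2, 0, 0 and 3 cells of the bins. With every cell thinned to 1000 UMIs, Sox9 was found in 10.0% (7.01 to 13.8) of the 329 cells with Spp1 and in 3.71% (2.85 to 4.74) of the others. Krt8 was found in 48.3% against 36.4%, and Krt18 in 26.1% against 19.8%. Without thinning, Sox9 also went up with Spp1 outside this cluster. In the Malat1-rich N-LKO cluster it was in 4.86% of cells with no Spp1 UMI and in 4 of 9 cells with 5 or more. In the main WT cluster these were 7.62% and 2 of 3 cells.

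**Figure D4:**
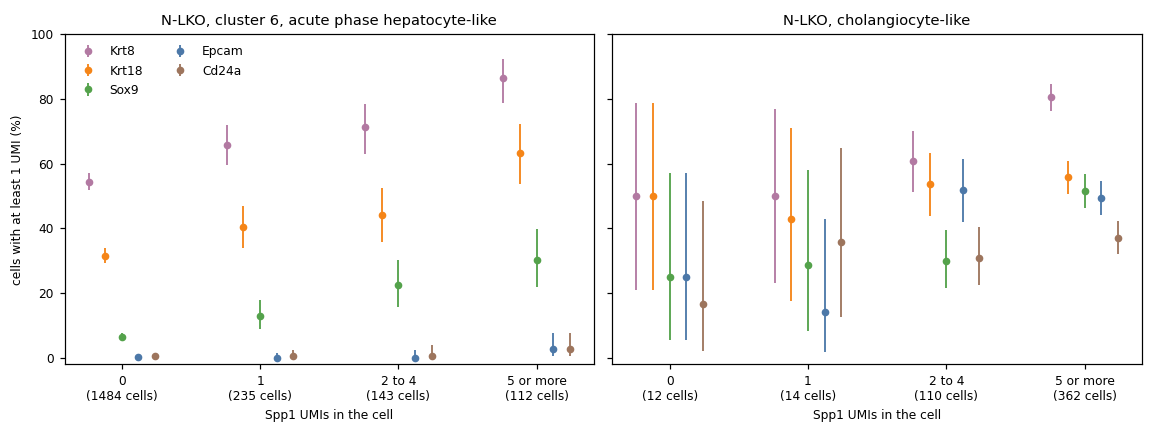
Share of N-LKO cells with a UMI of Krt8, Krt18, Sox9, Epcam and Cd24a by the number of Spp1 UMIs per cell. In the N-LKO acute phase cluster Sox9 goes from 6.33% of cells without Spp1 to 30.4% of cells with 5 or more, while Epcam stays at or below 2.68%, against 49.4% of N-LKO cholangiocyte-like cells with 5 or more.

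The ductal genes were seldom detected together in hepatocyte-like cells. Any of Epcam, Krt7 and Krt19 was detected in 107 of 200 WT (53.5%) and 293 of 498 N-LKO (58.8%) cholangiocyte-like cells, and at least 2 of the 3 in 22 and 73 of them. In the N-LKO acute phase cluster, 9 of 1974 cells (0.456%) held any of them and 0 held more than 1, which allows up to 0.152% of cells with UMIs of 2 or more of the genes. That limit is on detection and not on expression, since most cholangiocyte-like cells did not show 2 of the genes at this depth either. Any of the 3 was held by 0.283% of cells in the main WT cluster, where 1 cell held more than 1, and by 0.360% of N-LKO endothelial-like cells, a class that should lack these genes. Spp1 and Epcam had 5125 and 376 UMIs in N-LKO cholangiocyte-like cells, 2024 and 5 UMIs in the acute phase cluster, and 964 and 5 UMIs in the free RNA profile. Without thinning, at least 5 of the 9 genes were detected in 49 WT (24.5%) and 202 N-LKO (40.6%) cholangiocyte-like cells, and in 9 cells (0.456%) of the N-LKO acute phase cluster. The N-LKO cholangiocyte-like cells were deeper, at a median of 1600.5 UMIs against 1381 UMIs in WT. The part of depth and of free RNA in that difference was not tested.

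In cholangiocyte-like cells osteopontin was not higher in N-LKO, and Cd44 had the highest ratio of the 9 genes. Spp1 was at 6127 CPM in WT, compared with 5570 CPM in N-LKO, for a log2 ratio of −0.14 (−0.21 to −0.06), or 0.06 when cells were limited to 10% mitochondrial UMIs. Epcam, at 417 and 409 CPM, had a ratio of −0.03 (−0.32 to 0.27), and Sox9, at 385 and 406 CPM, of 0.07 (−0.22 to 0.39). Cd44 had 23 UMIs (73.8 CPM, 46.8 to 111) in WT and 218 UMIs (237 CPM, 207 to 271) in N-LKO, for a log2 ratio of 1.66 (1.06 to 2.37). Both levels were above the free RNA level of 21.9 and 41.9 CPM. At the 10% mitochondrial limit, which left 98 WT and 91 N-LKO cells, the Cd44 ratio was 0.29. Stellate markers moved with Cd44 in these cells. The 10 of them summed to 192 CPM in WT (8 detected, Des and Pdgfrb at 0) and to 505 CPM in N-LKO (all detected), against 167 and 229 CPM in the free RNA profile and 9534 and 5353 CPM in stellate-like cells. The stellate-like cells themselves held 199 CPM (WT) and 226 CPM (N-LKO) of Cd44, and the part of stellate RNA in the Cd44 ratio was not tested.

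The keratins of the cholangiocyte-like cells varied less. Krt8 was at 674 CPM in WT, compared with 960 CPM in N-LKO (log2 ratio 0.51, 0.29 to 0.73), and Krt18 was at 488 and 537 CPM (0.14, −0.13 to 0.41). For Krt19 the ratio was 0.60 (−0.05 to 1.36) and for Krt7, with 16 and 62 UMIs, 0.36 (−0.42 to 1.29), both intervals including 0. Cd24a was at 173 and 268 CPM (0.62, 0.20 to 1.08). All 9 genes reached 5 CPM here, 1 of them was 2-fold or more higher, and 12.5% of 12488 genes were. None was 2-fold or more lower, against 12.8% of genes, and the medians were 0.36 for the members and 0.02 for all genes.

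Outside the epithelium, Krt8 and Krt18 were above the level that free RNA would give in only a few classes. Krt8 was above it in WT endothelial-like cells, at 169 CPM or 1.23 times that level, and in WT plasma-like cells, at 163 CPM or 1.72 times, but not in N-LKO endothelial-like cells, at 144 CPM. Krt18 was above it in WT T/NK-like cells (1.28 times), WT monocyte/macrophage-like cells (1.42 times) and N-LKO erythroid-like cells (1.69 times). In Kupffer-like cells neither keratin was above it in either library, with Krt8 at 113 and 93.5 CPM. Spp1 in the 35 WT mesothelial-like cells was at 440 CPM (23 UMIs in only 2 cells), and at 113 CPM in the 79 N-LKO cells. In N-LKO erythroid-like cells Spp1 was at 242 CPM (177 to 322), against 12.2 CPM (1 UMI) in WT.

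Other genes tied to ductal fate and to osteopontin were counted in lists, and the hepatocyte-like cells compared lay in different clusters in each library. In hepatocyte-like cells, 9 of 16 other ductal and progenitor genes reached 5 CPM and 3 were 2-fold or more higher, where 24.2% of all genes were, with a median log2 ratio of 0.76 against 0.44 over all genes. Among them, Onecut1, a transcription factor of early liver, was at 16.8 CPM in WT, compared with 94.1 CPM in N-LKO, and Sox4 at 7.08 and 23.4 CPM. Vtcn1, a membrane protein of the B7 family, was at 0.71 and 25.5 CPM. Perp, a junction protein, was at 69.2 and 36.9 CPM. In cholangiocyte-like cells 13 of the 16 reached 5 CPM, 3 were 2-fold or more higher and 0 lower (12.5% and 12.8% of all genes), with a median of −0.03 against 0.02.

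Notch signaling and the YAP/TAZ coactivators are known to direct hepatocytes toward ductal fates. Of the 4512 N-LKO hepatocyte-like cells behind the counts below, 2417 were in the Malat1-rich cluster. Neither the Notch nor the YAP/TAZ list was split by cluster, so the part of those cells in the ratios was not tested. Of 12 Notch genes, 5 reached 5 CPM in hepatocyte-like cells and 3 were 2-fold or more higher, where 24.2% of all genes were, with a median of 1.07 against 0.44 over all genes. In the list of 12 YAP/TAZ genes, 9 reached it and 5 were higher, against the same 24.2%, with a median of 1.12, led by Tead1, a DNA-binding partner of YAP, at 26.1 and 124 CPM. In cholangiocyte-like cells 2 Notch genes were higher and 1 lower of 8, and 4 YAP/TAZ genes were higher and 0 lower of 12, where 12.5% of all genes were higher and 12.8% lower. The 10 cholangiocyte markers gave 5 at that level in hepatocyte-like cells, of which 4 were higher (24.2% of all genes), with a median of 1.51 against 0.44. Their summed level was 154 CPM in the main WT cluster and 143 CPM in the N-LKO acute phase cluster, against free RNA levels of 50.1 and 44.6 CPM. It was 373 CPM against 74.4 CPM in the Malat1-rich N-LKO cluster, whose hepatocyte identity is not shown by its markers. A raised sum was not limited to N-LKO: the smaller cluster of 320 WT cells with a high Malat1 share held 244 CPM against 22.8 CPM. Among the 10 markers, Pkhd1, a cilium protein of ducts, was at 42.8 CPM in WT, compared with 122 CPM in N-LKO. In cholangiocyte-like cells none of the 10 was past 2-fold in either direction.

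Receptors for osteopontin had the highest median ratio of the lists in cholangiocyte-like cells after the acute phase genes. All 8 reached 5 CPM there, 5 were 2-fold or more higher and 0 lower, where 12.5% of all genes were higher and 12.8% lower, with a median of 1.39 against 0.02. The stellate markers given above (192 and 505 CPM) moved with these receptors too, and their part was not tested. Itgav, the integrin subunit that pairs with several beta subunits to bind osteopontin, was at 109 CPM in WT, compared with 310 CPM in N-LKO. Itga4 was at 9.62 and 60.9 CPM, and Cd44, counted in this list too, was given above. In hepatocyte-like cells 2 of the 8 were higher, a share near the 24.2% of all genes, and 0 were lower, with a median of 0.85 against 0.44. Of these, Itgb3 was at 1.31 and 21.3 CPM. The share of UMIs that free RNA took was 47.1% in WT and 44.3% in N-LKO cholangiocyte-like cells, but 77.7% and 52.7% in hepatocyte-like cells, and its part in these ratios was not tested beyond the subtraction given for the members.

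Acute phase and zonation genes describe the state of the hepatocyte itself. In hepatocyte-like cells 9 of 12 acute phase genes were 2-fold or more higher, where 24.2% of all genes were, with a median of 2.47. In the same cells 3 of 7 periportal and 3 of 7 pericentral genes were 2-fold or more lower, where 2.47% of all genes were, with medians of −0.98 and −0.91. Periportal genes summed to 3741 CPM in the main WT cluster, 2489 CPM in the N-LKO acute phase cluster and 1142 CPM in the Malat1-rich N-LKO cluster. Pericentral genes summed to 2160, 1496 and 789 CPM. The Malat1-rich cluster, whose hepatocyte identity is not shown by its markers, held 2417 of the 4512 N-LKO cells, and its part in these counts was not tested. In cholangiocyte-like cells the counts were 7 of 10 acute phase genes higher, 3 of 7 periportal genes lower and 5 of 7 pericentral genes lower with 1 higher, where 12.5% of all genes were higher and 12.8% lower. Hepatocyte markers summed to 14869 CPM in WT, compared with 10625 CPM in N-LKO cholangiocyte-like cells, and to 31551 and 23991 CPM in the free RNA profile, and the part of free RNA in those counts was not tested. Of 49 keratin genes in the table, 3 reached 5 CPM in hepatocyte-like cells and 8 in cholangiocyte-like cells.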

How the data were processed

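Droplet-based 3′ single-cell RNA sequencing was performed on 2 liver libraries, 1 per group, with groups taken from the genotype labels. The deposited matrices hold raw UMI counts for every gene in every barcode, which the authors produced with Cell Ranger 7.1.0, and no normalization was applied to these counts. The submitters' processing notes also name Seurat and the build mm9, although 32158 of 32285 gene IDs matched a GRCm38 annotation (GENCODE M21), from which gene positions were taken. Whether intron reads were counted is not given in the sources used here. The libraries held 85522287 UMIs over 100171 barcodes (WT) and 87575064 UMIs over 90147 barcodes (N-LKO).

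Barcodes with at least 1000 UMIs, 400 genes and at most 30% mitochondrial UMIs were kept, and doublets with a Scrublet score over 0.25 were removed (1727, or 8.57%, in WT and 2359, or 10.6%, in N-LKO). The 2000 most variable genes, members excluded, gave 30 principal components, a neighbor graph and a Leiden partition at resolution 0.3 with 23 clusters, of which those passing the marker rule were named as 14 classes and the rest called mixed. Cell classes were rebuilt from the counts, so a difference from the study may come from the names. The members, lists and markers were chosen with earlier results of these data known.

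UMIs were summed per class and library and scaled to CPM. Intervals were exact Poisson for levels, exact conditional binomial for log2 ratios (N-LKO over WT, 0.5 UMI added to each sum) and Clopper-Pearson for shares. With 1 library per group no test across samples was run. A gene at 5 CPM or more in at least 1 group was counted as higher or lower past 2-fold, and the percentage of all such genes past it is given beside the members' count. The genes named were the 9 members, Nus1, up to 4 per list with the largest absolute log2 ratio among those at 20 CPM or more, and for each member the 3 genes with the most similar profile; a gene that this rule named is not reported here. Zero counts were given the limit of 3 UMIs. Alternatives changed 1 filter, clustering, scaling or counting choice at a time. The scripts were tested on simulated data. Python 3.11.15, scanpy 1.11.5, numpy 2.4.6, scipy 1.17.1, pandas 2.3.3 and leidenalg 0.10.2 were used, and promoter sequences came from RefSeq.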

Additional observations from a re-analysis of the deposited data

Results flagged for a closer look

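The Spp1 log2 ratio of N-LKO over WT was 3.53 in hepatocyte-like cells and −0.14 in cholangiocyte-like cells, so the library difference had opposite directions in these classes, with counting intervals on opposite sides of 0. With 1 library per group the difference between the classes was not tested, and at a 10% mitochondrial limit the cholangiocyte-like value was 0.06. In the remaining classes the Spp1 ratio was above 0 without subtraction of free RNA, except in mesothelial-like cells (−1.95). With free RNA subtracted it was also below 0 in plasmacytoid dendritic-like cells (−0.53).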

How the results depend on the processing

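In hepatocyte-like cells the Spp1 ratio stayed above 0 under all 9 alternatives run for it, from 2.67 at a 10% mitochondrial limit to 4.52 at 2000 UMIs. Of 139 values for single genes, 109 stayed within their counting interval. The sign turned in 12, and 7 of these lay beyond the interval. In hepatocyte-like cells they were Krt18 and Krt8 at the 10% mitochondrial limit (−0.38 each), Cd24a with free RNA subtracted (0.60 to −2.58), and Sox9 (−0.16) at 2000 UMIs (0.23), at resolution 1.0 (0.18) and without the clusters of outlying Malat1 share (0.07). In cholangiocyte-like cells it was Spp1 at the 10% mitochondrial limit (0.06). Counts of members past 2-fold changed by more than 1.5 times in 5 of 30 cases. Hepatocyte-like cells gave 5 with free RNA subtracted (Spp1, Cd44, Krt8 and Krt18 higher, Cd24a lower) against 2. The WT levels of Cd44 (28.9 against 36.2 CPM) and Krt18 (80.5 against 86.3 CPM) were under the free RNA level. Their remainders were set to a floor of 3 UMIs, so these 2 calls rest on that floor. The N-LKO level of Cd24a was not above that of free RNA, so its call rests on few remaining UMIs. Cholangiocyte-like cells gave 3 at 1.5-fold against 1. The acute phase cluster against other N-LKO hepatocyte-like cells gave 5 at a 10% mitochondrial limit, 5 at 1.5-fold and 1 at resolution 1.0, against 3; the last left the Malat1-rich cells out. A count that stayed the same could still hold other genes. At the 10% mitochondrial limit, the 1 member called in cholangiocyte-like cells was Krt7 and not Cd44. In hepatocyte-like cells, the 2 called there were Spp1 and Cd44, without Krt18. Beyond the floor and the Malat1-rich cells, the cause of these changes was not tested. Leaving out the 3 hepatocyte-like clusters of outlying Malat1 share gave Spp1 4.13, Krt18 1.94 and Krt8 1.26. At 2000 UMIs no cluster was named cholangiocyte-like, so no value was made. No paired analysis was possible because each group had 1 library. Depth limits Krt7 and Krt19, which had 3 to 6 UMIs in hepatocyte-like cells.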

Other observations

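The profiles of the members over 29 pairs of class and library with at least 50 cells were compared with those of 11586 other genes by the Pearson correlation of log2(CPM + 1). These points share their libraries, depth and free RNA, and the values are a description. Spp1 was most like Gm609 (0.93) and Anxa13 (0.91). Sox9 was most like Palmd (0.89), Naaladl2 (0.87) and Erbb4 (0.87). Krt8 was most like Palmd (0.92), Clmn (0.86) and Prox1 (0.86), and Krt18 was most like Erbb4, Clu and Sorbs2 (0.91 each). Krt7 was closest to Krt19, Cftr and Fxyd3 (0.91 each), and Krt19 to Fxyd3 (0.93), Gm20400 (0.92) and Epdr1 (0.92). Epcam was closest to Sgpp2 (0.88), Ankrd1 (0.83) and Tspan8 (0.82). Cd44, with Iqgap1 (0.91), Cyba (0.90) and Abr (0.88), and Cd24a, with Alcam (0.78), Plp2 (0.77) and Malat1 (0.75), had neighbors outside the ductal genes.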
